A study of Homo sapiens with 24 samples.

Results

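The 36 genes described here encode subunits of Integrator and the proteins that cut, polyadenylate and release mRNAs at their 3′ ends. They were taken by name from a list of such factors, and they are 36 of the 18132 genes that had a probe set of their own on the array. This list and the further lists used here were chosen with earlier results of these data known. Shares set beside those of other genes are therefore a description, with no test. Each gene was followed by its brightest probe set, the one with the highest mean over all 24 arrays, and 28 of the 36 genes had further probe sets that served as a check. The list holds 11 Integrator subunits, 7 members of the cleavage and polyadenylation specificity factor (CPSF) with its scaffold, 3 subunits of the cleavage stimulation factor (CstF), 3 of cleavage factor I, 2 of cleavage factor II, 3 factors of the poly(A) tail, the nuclease XRN2, the paralogs SCAF4 and SCAF8, and 4 factors that act on the C-terminal domain (CTD) of RNA polymerase II.

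RNA polymerase II ends most transcripts by a cut downstream of a poly(A) signal. CPSF reads the signal and holds the endonuclease, CstF and cleavage factor I bind neighbouring motifs, cleavage factor II links the machinery to the polymerase, a poly(A) polymerase adds the tail, and an exonuclease then degrades the RNA still attached to the polymerase. Integrator is a separate endonuclease and phosphatase complex that processes small nuclear RNAs and ends transcription early at many protein-coding genes. Much of this machinery is recruited through the phosphorylated CTD, which CDK12 and CDK13 help to phosphorylate during elongation.

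Bulk RNA was measured in SJSA-1 and U2-OS, established human osteosarcoma cell lines, after 6 h with DMSO, the solvent control, or with 50, 200 or 800 nM THZ531, an inhibitor of CDK12 and CDK13. Each of the 8 groups had 3 Affymetrix PrimeView arrays, and no group carried any other agent or genetic change named in the labels. Whether the arrays of a group stand for separate cultures is not stated in the labels, so the p-values rest on a spread between arrays that may be technical only. In bulk RNA, fewer cells with a transcript and less of it per cell cannot be told apart.

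The values are normalized probe-set intensities between 3.43 and 9675, with array medians of 30.1 to 33.6, and they are relative to the rest of the array. MDM2, known to be amplified in SJSA-1, lay between 1499 and 1710 in DMSO arrays of SJSA-1 and between 142 and 148 in those of U2-OS. The labels' extraction text names a brain tissue and another kit than the methods do. Among 14 measured markers of neurons and glia, TUBB3 was above an intensity of 100 in SJSA-1, and NEFL and TUBB3 were in U2-OS, with summed levels per group of 557 to 664 and 1236 to 1490. None of 14 markers of leukocytes and endothelium was above 100 in either line, while osteoblast markers were above 100 for 0 of 10 in SJSA-1 and 4 of 10 in U2-OS (RUNX2, SPP1, COL1A1 and BMP4). The part of such differences in the results was not tested.

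Genes were called active in a line where the log2 intensities of the 3 DMSO arrays averaged above log2(100), and only these were tested. Of the 36 genes, 29 were active in SJSA-1 and 31 in U2-OS, 28 of them in both. INTS3 was active in SJSA-1 alone, INTS4, INTS9 and SYMPK in U2-OS alone, and INTS5, PCF11, PABPN1 and RPRD2 in neither. A change is the difference of mean log2(intensity + 1), THZ531 minus DMSO, given with its standard error, and it passed when its adjusted p from limma, over all active genes of the line, was under 0.05.

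Most of the tested genes changed at every dose in SJSA-1 and at 200 and 800 nM in U2-OS, and the changes went both ways. In SJSA-1 at 50 nM, 14 of 29 fell and 10 rose, where 40.6% of all active genes fell and 26.6% rose. At 200 nM, 16 fell and 7 rose (41% and 33.9% of all active genes), and at 800 nM 15 fell and 9 rose (37.5% and 36.5%). The medians over the 29 genes were -0.31, -0.28 and -0.15 on the log2 scale, beside -0.05, -0.02 and 0.02 over all active genes. The shares that fell were therefore somewhat above those of all active genes at each dose in SJSA-1, and the shares that rose were above at 50 nM and below at 200 and 800 nM.

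In U2-OS at 50 nM only 3 of 31 genes passed, all lower (INTS8, SSU72 and RPRD1A), where 3.23% of all active genes fell and 3.4% rose. At 200 nM, 12 fell and 8 rose, against 25% and 18.2% of all active genes, and at 800 nM 17 fell and 10 rose, against 36.5% and 25.3%. The medians were -0.02, -0.04 and -0.19, beside -0.01, -0.02 and -0.05 over all active genes. U2-OS thus had few calls at the dose at which SJSA-1 had 24. The count at 50 nM in U2-OS rested on single arrays, with 0 to 5 lower when each of the 6 arrays compared was left out in turn. At 200 nM in U2-OS, CPSF6, CPSF7, CSTF3, FIP1L1, INTS4, RPRD1B and XRN2 each no longer passed without 1 or more single arrays, and 4 rose without DMSO replicate 1 and 5 without 200 nM replicate 3.

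Falls of at least 2-fold were made by 5, 7 and 8 of the 29 genes at 50, 200 and 800 nM in SJSA-1, where 6.21%, 11.7% and 12.2% of all active genes fell as far. In U2-OS, 0, 1 and 3 of 31 genes fell as far at these doses, where 0%, 0.697% and 4.38% of all active genes did. Rises of at least 2-fold were those of PAPOLA at 50 nM in SJSA-1, where 0.959% of all active genes rose as far, and of SCAF8 at 800 nM in U2-OS, where 1.16% did. None of the tested genes of the list rose as far at 200 and 800 nM in SJSA-1 (0.396% and 0.152% of all active genes) or at 50 and 200 nM in U2-OS (0.0297% and 0.0445%).

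The direction of the smaller rises depended on what the arrays were scaled to. The poly-A spike-in controls, which are added to the RNA before labelling, rose with THZ531 by 0.50, 0.46 and 0.53 on the log2 scale in SJSA-1 and by 0.10, 0.53 and 0.91 in U2-OS at 50, 200 and 800 nM. The hybridization controls, added after labelling, moved by 0.22, 0.18 and 0.20 in SJSA-1 and by -0.18, -0.10 and -0.06 in U2-OS. A shift of the arrays by both kinds of spike-in control moved the median of all active genes to -0.42, -0.36 and -0.38 in SJSA-1 and to 0.01, -0.28 and -0.54 in U2-OS. After that shift, 19 of the 29 genes fell and 2 rose at 50 nM in SJSA-1 (76.6% and 3.53% of all active genes), 21 fell and 1 rose at 200 nM (64.8% and 2.19%), and 20 fell and 1 rose at 800 nM (68.5% and 2.09%). In U2-OS, 0 fell and 0 rose at 50 nM (0.43% and 0.415%), 18 fell and 2 rose at 200 nM (54% and 1.56%), and 22 fell and 1 rose at 800 nM (81.8% and 3.31%). The poly-A controls varied most between the U2-OS arrays at 50 nM, with an SD of 0.35 beside 0.07 in U2-OS DMSO. The part of this spread in the calls lost at 50 nM was not tested. The rises that still passed were those of PAPOLA at 50 and 200 nM, WDR33 at 50 nM and RPRD1A at 800 nM in SJSA-1, and of WDR33 at 200 nM and SCAF8 at 200 and 800 nM in U2-OS. Every called change whose sign turned under the shift was a rise, and the text names these genes where they occur. Centring each array on its median, or quantile normalization again, turned none of the called changes.

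**Figure D1:**
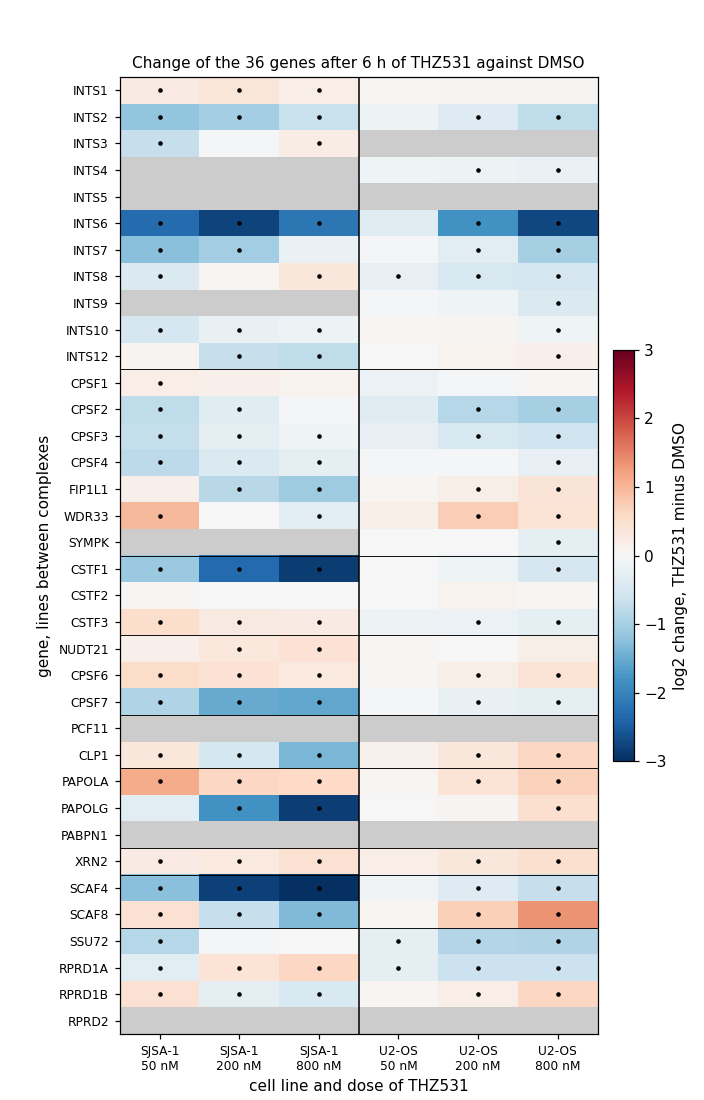
Colour shows the log2 change of each of the 36 genes, THZ531 minus DMSO, for SJSA-1 (3 columns on the left) and U2-OS (3 columns on the right) at 50, 200 and 800 nM, with dots where the adjusted p was under 0.05 and grey where the gene was not active in the line. INTS6 was low in both lines, SCAF4, CSTF1 and PAPOLG were low in SJSA-1 far more than in U2-OS, and the U2-OS columns at 50 nM hold 3 dots.

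Promoter sequence is shown for 3 genes as examples, INTS6, which fell in both lines, and the paralogs RPRD1A and RPRD1B, whose brightest probe sets changed in opposite directions. The lines give the 150 bases before the annotated start, 5′ to 3′ on the gene's strand, from RefSeq on GRCh38.p14, with matches to the searched motifs in capitals. INTS6 lies on chromosome 13 (chr13:51453037-51453186, minus strand), RPRD1A on chromosome 18 (chr18:36067560-36067709, minus strand) and RPRD1B on chromosome 20 (chr20:38033596-38033745, plus strand).
INTS6: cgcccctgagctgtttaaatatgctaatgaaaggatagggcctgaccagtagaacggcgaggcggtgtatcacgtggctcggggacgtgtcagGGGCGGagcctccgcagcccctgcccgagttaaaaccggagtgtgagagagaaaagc
RPRD1A: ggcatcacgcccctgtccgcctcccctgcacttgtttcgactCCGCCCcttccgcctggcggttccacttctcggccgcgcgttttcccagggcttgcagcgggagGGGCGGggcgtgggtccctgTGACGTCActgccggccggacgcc
RPRD1B: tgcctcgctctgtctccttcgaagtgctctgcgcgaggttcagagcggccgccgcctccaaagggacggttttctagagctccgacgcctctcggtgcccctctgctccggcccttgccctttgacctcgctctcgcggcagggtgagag
INTS6 has 1 match, a GC box, in these bases, RPRD1A has 3, which are 2 GC boxes and a cAMP response element, and RPRD1B has 0.

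Promoter windows of 300 bases, 250 before and 50 after the start, were matched for 30 of the 36 genes and searched on both strands. The GC box (GGGCGG) was present in 70.0% of the 30 windows and 44.6% of all 27305 windows, the CCAAT box (CCAAT) in 46.7% and 35.7%, and an ETS motif (CCGGAAG) in 30% and 10.7%. The cAMP response element (TGACGTCA) was present in 4 of the 30 windows, 13.3%, and in 1.98% of all windows. The TATA box (TATAAA) was present in 0 of the 30 windows and in 12% of all. The 27305 windows include genes that are not on the array or were not active here, so they are not matched to the active genes. These matches are a description of letters in the windows, with no test.

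INTS6, the Integrator subunit that with INTS8 holds the phosphatase PP2A, fell furthest of the tested Integrator genes at 200 nM in both lines. Its intensities in SJSA-1 were 246, 260 and 286 in DMSO, 53.1, 55.3 and 47.8 at 50 nM, 38.6, 38.9 and 35.0 at 200 nM and 53.8, 61.4 and 58.5 at 800 nM. In U2-OS they were 119, 115 and 124 in DMSO, 99.7, 95.7 and 85.0 at 50 nM, 38.1, 21.7 and 44.6 at 200 nM and 16.6, 14.9 and 20.4 at 800 nM. All treated arrays of both lines lay below all DMSO arrays of their line. The SJSA-1 level was lowest at 200 nM, clear of the arrays at 50 and 800 nM, while the U2-OS level was lower at each higher dose. The changes were -2.32 ± 0.07, -2.78 ± 0.07 and -2.17 ± 0.07 in SJSA-1 (SE; adjusted p = 6.39e-11, 3.96e-12 and 1.66e-11) and -0.35 ± 0.20, -1.81 ± 0.20 and -2.73 ± 0.20 in U2-OS (adjusted p = 0.320, 1.86e-05 and 1.25e-07). The probe set that carries these values is of a type (_x_at) whose probes can also bind other transcripts, and none of the other INTS6 probe sets was active. The brightest of the others, with means of 88.9 in SJSA-1 and 49.7 in U2-OS in DMSO, had -2.22, -2.47 and -1.87 in SJSA-1 and -0.51, -1.63 and -2.29 in U2-OS, while a dim one with means of 10.1 and 10.7 had 1.52 and 1.67 at 50 and 200 nM in SJSA-1 and 0.09 and 0.62 in U2-OS, all given with no test.

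INTS2 and INTS7, subunits of the Integrator core, also fell in both lines. INTS7 was at 120, 119 and 136 in DMSO arrays of SJSA-1, at 50.9, 58.5 and 46.2 at 50 nM, at 71.0, 56.9 and 53.4 at 200 nM and at 100, 115 and 108 at 800 nM. U2-OS arrays were at 181, 184 and 185 in DMSO, 190, 172 and 165 at 50 nM, 140, 144 and 153 at 200 nM and 89.9, 86.8 and 95.7 at 800 nM. The fall of INTS7 was deepest at 50 nM in SJSA-1, with -1.26 ± 0.11 against -0.21 ± 0.11 at 800 nM, where it did not pass (adjusted p = 0.0905), and deepest at 800 nM in U2-OS, with -1.01 ± 0.06. INTS2 had changes of -1.19, -1.02 and -0.68 in SJSA-1 and of -0.16, -0.38 and -0.77 in U2-OS, all passed except at 50 nM in U2-OS.

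INTS8 fell at all 3 doses in U2-OS (-0.25, -0.48 and -0.50), and in SJSA-1 it fell at 50 nM (-0.43), was at 0.05 at 200 nM and rose at 800 nM (0.34), a rise that turned to -0.06 under the spike-in shift. The INTS8 call at 50 nM in U2-OS depended on single arrays. INTS3, which also belongs to the SOSS complex of DNA repair and was active in SJSA-1 alone, fell at 50 nM (-0.70) and rose at 800 nM (0.23, or -0.16 under the shift). INTS10 fell at each dose in SJSA-1 (-0.50, -0.22 and -0.15) and at 800 nM in U2-OS (-0.14). INTS12, a subunit with a PHD finger, fell at 200 and 800 nM in SJSA-1 (-0.68 and -0.77), and its small rise at 800 nM in U2-OS (0.16) turned to a called fall of -0.34 under the shift. INTS1, the largest subunit, rose in SJSA-1 (0.25, 0.36 and 0.20, of which the first and last turned under the shift) and had 0.03, 0.09 and 0.09 in U2-OS, none passed. INTS4 and INTS9, parts of the cleavage module and tested in U2-OS alone, also fell there, INTS4 at 200 and 800 nM (-0.15 and -0.19) and INTS9 at 800 nM (-0.44). Values of INTS3, INTS4 and INTS9 in the line where they were not active are given below, from a fit without the filter. In all, 5 of the 8 tested Integrator genes fell and 1 rose at 200 nM in SJSA-1 (41% and 33.9% of all active genes), and 5 of 9 fell and 0 rose in U2-OS (25% and 18.2%).

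Within CPSF, the endonuclease gene CPSF3 and its catalytically inactive partner CPSF2 fell in both lines, again with different dose patterns. CPSF2 was at 284, 258 and 280 in DMSO arrays of SJSA-1, at 170, 154 and 161 at 50 nM, at 231, 197 and 209 at 200 nM and at 246, 276 and 265 at 800 nM, where the arrays overlapped those of DMSO. The U2-OS arrays lay at 153, 151 and 177 in DMSO, 137, 132 and 104 at 50 nM, 88.6, 81.0 and 95.0 at 200 nM and 71.5, 82.1 and 84.4 at 800 nM. So the SJSA-1 level was lowest at 50 nM and close to DMSO at 800 nM, while the U2-OS level was lowest at 800 nM. The changes of CPSF2 were -0.76, -0.37 and -0.06 in SJSA-1, the last not passed, and -0.37, -0.86 and -1.01 in U2-OS, the first not passed (adjusted p = 0.0555). CPSF3 had -0.70, -0.29 and -0.13 in SJSA-1, all passed, and -0.26, -0.47 and -0.59 in U2-OS, passed at 200 and 800 nM.

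WDR33 and CPSF4 bind the poly(A) signal. CPSF4 fell at each dose in SJSA-1 (-0.79, -0.44 and -0.29) and at 800 nM in U2-OS (-0.24). WDR33 was at 140, 141 and 143 in DMSO arrays of SJSA-1, 276, 278 and 280 at 50 nM, 151, 136 and 138 at 200 nM and 102, 124 and 108 at 800 nM, so that it rose at the lowest dose (0.97 ± 0.06, adjusted p = 2.42e-08) and fell at the highest (-0.35 ± 0.06, adjusted p = 3.10e-04). Its U2-OS intensities were 144, 142 and 162 in DMSO, 167, 175 and 167 at 50 nM, 249, 237 and 261 at 200 nM and 195, 190 and 209 at 800 nM, with the largest rise at 200 nM (0.74 ± 0.06, adjusted p = 3.00e-06). These are the values of the brightest probe set. Another active WDR33 probe set fell at each dose in SJSA-1, also at 50 nM where the brightest one rose. At 200 nM in U2-OS that other probe set fell too (-0.94), and the mean over the WDR33 probe sets was -0.066. At 800 nM the rise of the brightest probe set in U2-OS was 0.41, which turned to -0.09 under the spike-in shift.

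FIP1L1, the CPSF subunit that contacts poly(A) polymerase, passed with opposite signs in the lines at 200 nM. In SJSA-1 it was at 685, 666 and 653 in DMSO, 750, 744 and 719 at 50 nM, 407, 377 and 343 at 200 nM and 311, 302 and 343 at 800 nM. For U2-OS the intensities were 553, 523 and 588 in DMSO, 605, 572 and 568 at 50 nM, 635, 671 and 576 at 200 nM and 714, 719 and 724 at 800 nM. The 200 nM arrays of U2-OS overlapped the DMSO arrays and those of SJSA-1 did not. The U2-OS rise at 200 nM no longer passed without any 1 of 4 arrays. The mean over the FIP1L1 probe sets there was -0.00726. The changes at 200 and 800 nM were -0.83 ± 0.06 and -1.07 ± 0.06 in SJSA-1 and 0.18 ± 0.06 and 0.38 ± 0.06 in U2-OS, and both U2-OS rises turned under the shift, to -0.09 and -0.12. SYMPK, the scaffold symplekin, was tested in U2-OS and fell at 800 nM (-0.27), and CPSF1, the largest CPSF subunit, passed once, at 50 nM in SJSA-1 (0.21, or -0.17 under the shift).

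The 3 CstF genes behaved differently from each other. CSTF1 fell in SJSA-1, where it was at 256, 241 and 247 in DMSO, 115, 119 and 107 at 50 nM, 48.8, 44.9 and 52.7 at 200 nM and 37.3, 32.9 and 30.7 at 800 nM, with no overlap between neighbouring doses. U2-OS arrays were at 214, 204 and 215 in DMSO, 234, 198 and 195 at 50 nM, 198, 177 and 208 at 200 nM and 143, 148 and 155 at 800 nM, and only the highest dose lay below all DMSO arrays. The changes were -1.12, -2.32 and -2.85 in SJSA-1, each ± 0.07, and -0.02, -0.12 and -0.50 in U2-OS, of which the last passed (adjusted p = 8.15e-05). CSTF2, the subunit that binds the GU-rich element, passed at no dose in either line, with changes between -0.01 and 0.10. Its relative CSTF2T, which is not one of the 36 genes, fell at 200 nM in SJSA-1 (-1.78) and in U2-OS (-0.50).

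CSTF3, the subunit that holds the complex together, also passed with opposite signs at 200 nM by its brightest probe set. Its brightest probe set was at 484, 468 and 474 in DMSO arrays of SJSA-1, 671, 676 and 695 at 50 nM, 592, 549 and 576 at 200 nM and 537, 560 and 605 at 800 nM. The U2-OS arrays lay at 274, 274 and 252 in DMSO, 237, 239 and 239 at 50 nM, 229, 242 and 239 at 200 nM and 223, 211 and 228 at 800 nM. Treated arrays lay above all DMSO arrays in SJSA-1 and below them in U2-OS at each dose. The changes were 0.52, 0.27 and 0.25 in SJSA-1, of which the rises at 200 and 800 nM turned to -0.07 and -0.14 under the spike-in shift, and -0.16, -0.17 and -0.28 in U2-OS, of which the first did not pass (adjusted p = 0.0647). At 200 nM in SJSA-1 another active CSTF3 probe set fell (-1.82), and the mean over the CSTF3 probe sets was -0.19.

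In cleavage factor I, CPSF7 fell and its paralog CPSF6 rose, by their brightest probe sets. CPSF7 was at 179, 172 and 165 in DMSO arrays of SJSA-1, 89.9, 94.4 and 92.4 at 50 nM, 67.6, 58.5 and 54.2 at 200 nM and 48.5, 63.1 and 61.4 at 800 nM. Its U2-OS intensities were 202, 208 and 205 in DMSO, 208, 199 and 181 at 50 nM, 163, 177 and 190 at 200 nM and 180, 162 and 168 at 800 nM. The fall was thus several times deeper in SJSA-1, with -0.89, -1.51 and -1.57, each ± 0.09, against -0.07, -0.22 and -0.27 in U2-OS, where the first did not pass. CPSF6 rose at each dose in SJSA-1 (0.54, 0.44 and 0.30) and at 200 and 800 nM in U2-OS (0.17 and 0.41), with the SJSA-1 rise at 800 nM and both U2-OS rises turned under the shift. At 200 nM in SJSA-1 another active CPSF6 probe set fell (-0.19). NUDT21, which binds the UGUA motif and pairs with either paralog, rose at 200 and 800 nM in SJSA-1 (0.32, which turned, and 0.44) and had 0.06, -0.02 and 0.17 in U2-OS, none passed.

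CLP1, the RNA kinase of cleavage factor II, passed with opposite signs in the lines at 200 nM. Its intensities were 280, 311 and 313 in DMSO arrays of SJSA-1, 383, 383 and 377 at 50 nM, 226, 199 and 202 at 200 nM and 109, 120 and 118 at 800 nM. In U2-OS they were 333, 343 and 335 in DMSO, 383, 362 and 355 at 50 nM, 431, 393 and 449 at 200 nM and 519, 508 and 541 at 800 nM. Treated arrays at each dose were clear of the DMSO arrays in both lines, above them in U2-OS and first above and then below them in SJSA-1. The changes were 0.34, -0.52 and -1.37 in SJSA-1, each ± 0.06, where the first turned to -0.04 under the shift, and 0.12, 0.33 and 0.63 in U2-OS, each ± 0.05, of which the first did not pass (adjusted p = 0.212).

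The 2 poly(A) polymerase genes on the list moved apart in SJSA-1. PAPOLA, the main enzyme, was at 750, 714 and 781 in DMSO arrays of SJSA-1, 1607, 1607 and 1629 at 50 nM, 1201, 1105 and 1176 at 200 nM and 1097, 1152 and 1136 at 800 nM. For U2-OS the intensities were 879, 873 and 867 in DMSO, 904, 936 and 879 at 50 nM, 1252, 1105 and 1105 at 200 nM and 1351, 1448 and 1418 at 800 nM. It rose at each dose in SJSA-1 (1.11, 0.63 and 0.59) and at 200 and 800 nM in U2-OS (0.40 and 0.69), each ± 0.05. None of these rises turned under the shift, but only those at 50 and 200 nM in SJSA-1 still passed. All of these rises are those of the brightest probe set. At 200 nM in U2-OS 5 of the 8 active PAPOLA probe sets fell, and the mean over its probe sets was -0.00861.

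PAPOLG, the second nuclear enzyme, was at 95.0, 107 and 114 in DMSO arrays of SJSA-1, 88.0, 80.4 and 82.7 at 50 nM, 31.3, 29.4 and 26.4 at 200 nM and 9.38, 16.1 and 17.4 at 800 nM. U2-OS arrays were at 153, 158 and 149 in DMSO, 164, 153 and 136 at 50 nM, 169, 146 and 170 at 200 nM and 205, 204 and 232 at 800 nM. The level at 800 nM in SJSA-1 was below the median of all probe sets on the array. Its changes at 200 and 800 nM were -1.82 ± 0.16 and -2.84 ± 0.16 in SJSA-1 (adjusted p = 3.41e-07 and 3.36e-09) and 0.07 ± 0.08 and 0.47 ± 0.08 in U2-OS, where only the second passed (adjusted p = 2.08e-04) and turned to -0.02 under the shift. XRN2, the exonuclease that degrades the RNA downstream of the cut, rose in SJSA-1 (0.26, 0.29 and 0.45) and at 200 and 800 nM in U2-OS (0.34 and 0.47), but the rises at 50 and 200 nM in SJSA-1 and at 800 nM in U2-OS turned under the shift.

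SCAF4 and SCAF8 are paralogs that bind the CTD and keep the polymerase from ending at early poly(A) sites. SCAF4 was at 367, 372 and 372 in DMSO arrays of SJSA-1, 141, 171 and 150 at 50 nM, 54.2, 52.7 and 51.3 at 200 nM and 39.9, 30.3 and 33.6 at 800 nM. The U2-OS arrays lay at 269, 284 and 302 in DMSO, 274, 261 and 252 at 50 nM, 231, 197 and 221 at 200 nM and 182, 169 and 176 at 800 nM. SCAF4 therefore fell in both lines, with changes of -1.26, -2.79 and -3.39 in SJSA-1, each ± 0.09, and of -0.40 and -0.69 at 200 and 800 nM in U2-OS, each ± 0.07. Its fall at 800 nM in SJSA-1 was the largest change against DMSO of any of the 36 genes tested by their brightest probe sets.

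SCAF8 rose with dose in U2-OS, and in SJSA-1 it rose at 50 nM and fell at the higher doses. It was at 232, 252 and 280 in DMSO arrays of SJSA-1, 365, 326 and 362 at 50 nM, 167, 148 and 153 at 200 nM and 103, 101 and 101 at 800 nM. Its U2-OS intensities were 198, 197 and 195 in DMSO, 212, 214 and 193 at 50 nM, 340, 292 and 340 at 200 nM and 498, 512 and 491 at 800 nM. At 200 nM the arrays of both lines were clear of their DMSO arrays, below in SJSA-1 and above in U2-OS. The changes were 0.46, -0.70 and -1.31 in SJSA-1, each ± 0.07, and 0.07, 0.71 and 1.34 in U2-OS, each ± 0.06, of which the first in U2-OS did not pass. None of the SCAF8 rises turned under the shift, but the rise at 50 nM in SJSA-1 no longer passed after it. The other active SCAF8 probe sets moved the same way wherever they passed.

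**Figure D2:**
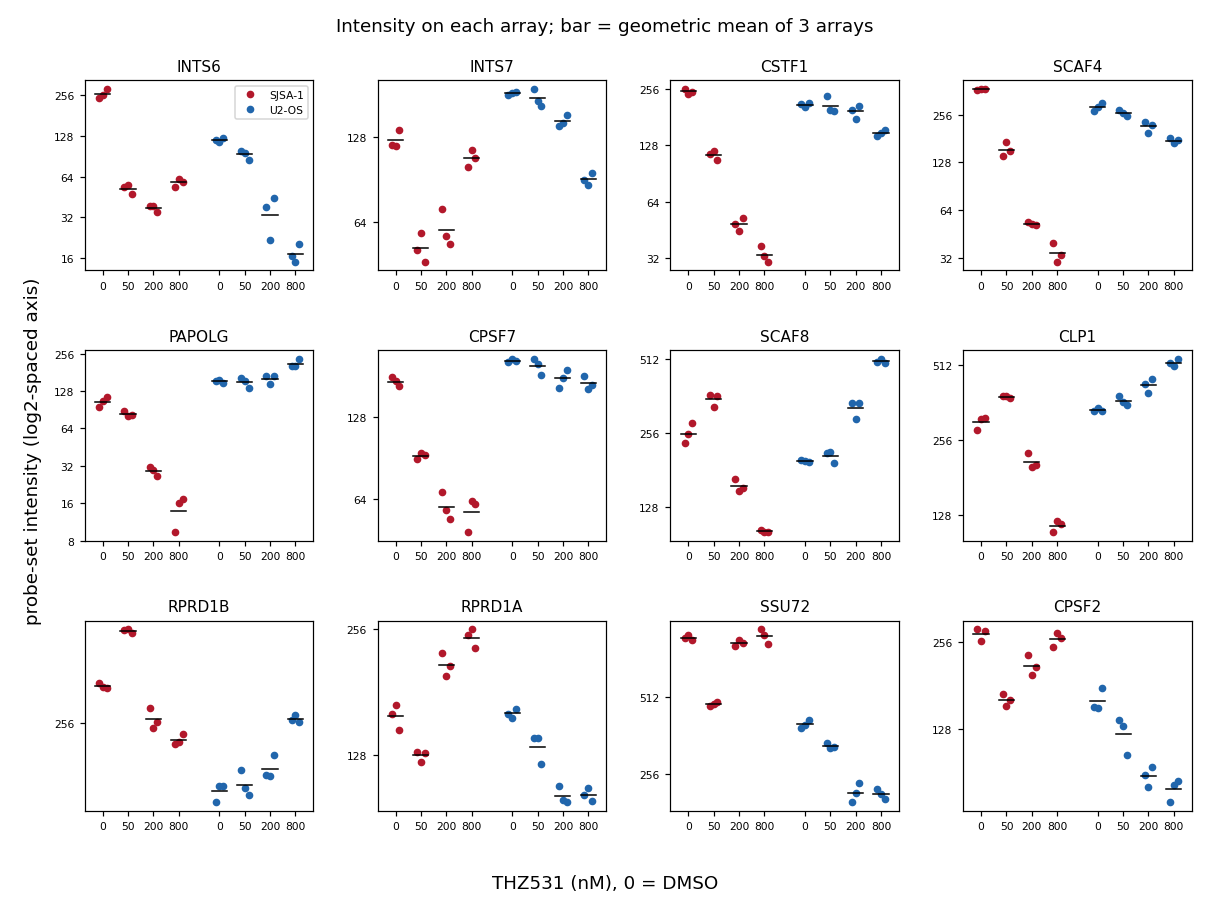
Each point is the probe-set intensity of 1 array on a log2-spaced axis for 12 of the genes, with THZ531 dose along the x axis (0 is DMSO), SJSA-1 in red on the left and U2-OS in blue on the right of each panel, and a bar at the geometric mean of 3 arrays. INTS6, CSTF1, SCAF4 and PAPOLG lie far below their DMSO arrays in SJSA-1 at 200 and 800 nM, and SCAF8, CLP1 and RPRD1B are higher in U2-OS at these doses and lower in SJSA-1 (the RPRD1B rise at 200 nM turned under the spike-in shift).

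SSU72, a CTD phosphatase that works with symplekin, and RPRD1A, which binds the CTD and recruits the phosphatase RPAP2, fell in U2-OS from the lowest dose on. Their calls at 50 nM in U2-OS depended on single arrays. Neither passed there after the spike-in shift, in the group whose poly-A controls varied most between arrays. SSU72 was at 867, 885 and 849 in DMSO arrays of SJSA-1, 471, 481 and 488 at 50 nM, 803, 849 and 826 at 200 nM and 936, 885 and 820 at 800 nM. In U2-OS its values were 388, 399 and 416 in DMSO, 338, 324 and 326 at 50 nM, 199, 217 and 237 at 200 nM and 224, 214 and 205 at 800 nM. The brightest SSU72 probe set thus fell at 50 nM in both lines, with -0.85 in SJSA-1 and -0.28 in U2-OS, while at 200 and 800 nM it had -0.07 and 0.02 in SJSA-1, where its arrays overlapped the DMSO arrays and neither passed, and -0.88 and -0.90 in U2-OS. A further active SSU72 probe set rose at 50 nM in SJSA-1 (1.22) and at 200 nM in U2-OS (0.40).

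RPRD1A was at 161, 169 and 147 in DMSO arrays of SJSA-1, 131, 124 and 130 at 50 nM, 224, 198 and 209 at 200 nM and 247, 256 and 231 at 800 nM. For U2-OS the intensities were 161, 158 and 165 in DMSO, 141, 141 and 122 at 50 nM, 108, 100 and 99.0 at 200 nM and 103, 107 and 99.7 at 800 nM. Its changes were -0.31, 0.40 and 0.62 in SJSA-1 and -0.26, -0.65 and -0.64 in U2-OS, each ± 0.06 and all passed, so that the lines moved together at 50 nM and apart at 200 and 800 nM. The call at 50 nM in U2-OS depended on single arrays.

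RPRD1B, the paralog of RPRD1A and its partner on the CTD, ran the other way at each dose at which both genes passed. It was at 324, 317 and 315 in DMSO arrays of SJSA-1, 443, 446 and 437 at 50 nM, 280, 249 and 258 at 200 nM and 226, 229 and 241 at 800 nM. U2-OS arrays were at 161, 177 and 177 in DMSO, 194, 175 and 168 at 50 nM, 189, 187 and 212 at 200 nM and 261, 269 and 258 at 800 nM. The changes were 0.47, -0.28 and -0.46 in SJSA-1, each ± 0.05, and 0.06, 0.19 and 0.61 in U2-OS, each ± 0.07, where the first did not pass and the second turned to -0.07 under the shift. RPRD1A therefore fell where RPRD1B rose at 50 nM in SJSA-1 and at 200 and 800 nM in U2-OS (at 200 nM the RPRD1B rise turned under the shift), and rose where RPRD1B fell at 200 and 800 nM in SJSA-1 (at 200 nM the mean over the RPRD1B probe sets was 0.11). In the promoter lines above, the GC boxes and the cAMP response element stand before RPRD1A and none before RPRD1B. Any link of these motifs to the changes was not tested.

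The dose series itself differed between genes in SJSA-1. Between 50 and 800 nM, 13 of the 29 genes were lower at 800 nM and 12 were higher, where 30.2% of all active genes were lower and 41.6% were higher. PAPOLG (-2.51 ± 0.16), SCAF4 (-2.13 ± 0.09), SCAF8 (-1.78 ± 0.07), CSTF1 (-1.73 ± 0.07) and CLP1 (-1.71 ± 0.06) fell furthest over this range. INTS7 (1.05 ± 0.11), INTS3 (0.93 ± 0.07), RPRD1A (0.93 ± 0.06) and SSU72 (0.87 ± 0.05) were higher at 800 than at 50 nM. INTS6 had 0.15 ± 0.07 over the range and did not pass (adjusted p = 0.0773).

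In U2-OS, 15 of 31 genes were lower and 10 were higher at 800 than at 50 nM, where 32.4% of all active genes were lower and 22.7% were higher. INTS6 (-2.38 ± 0.20) and INTS7 (-0.95 ± 0.06) were lower by the most and SCAF8 (1.28 ± 0.06) was higher by the most. After the spike-in shift, 24 of the 31 genes were lower and 1 was higher, beside 85.7% and 1.94% of all active genes. Both contrasts of 800 with 50 nM share their treated arrays with the contrasts against DMSO.

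At 200 nM the change differed between the lines for 24 of the 28 genes active in both. The difference, taken as SJSA-1 over U2-OS, was below 0 for 15 of these and above 0 for 9, where 35.5% and 28.4% of all genes active in both lines were. SCAF4 (-2.39 ± 0.11), CSTF1 (-2.20 ± 0.11), PAPOLG (-1.89 ± 0.20), SCAF8 (-1.42 ± 0.09) and CPSF7 (-1.29 ± 0.12) had the most negative differences, and RPRD1A (1.05 ± 0.09) and SSU72 (0.81 ± 0.08) had the most positive. The differences of CPSF1 (0.20 ± 0.10), CPSF3 (0.19 ± 0.09), CSTF2 (-0.12 ± 0.07) and XRN2 (-0.05 ± 0.15) did not pass. After the spike-in shift 15 differences were below 0 and 5 above 0, beside 31% and 9.14% of all genes active in both.

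**Figure D3:**
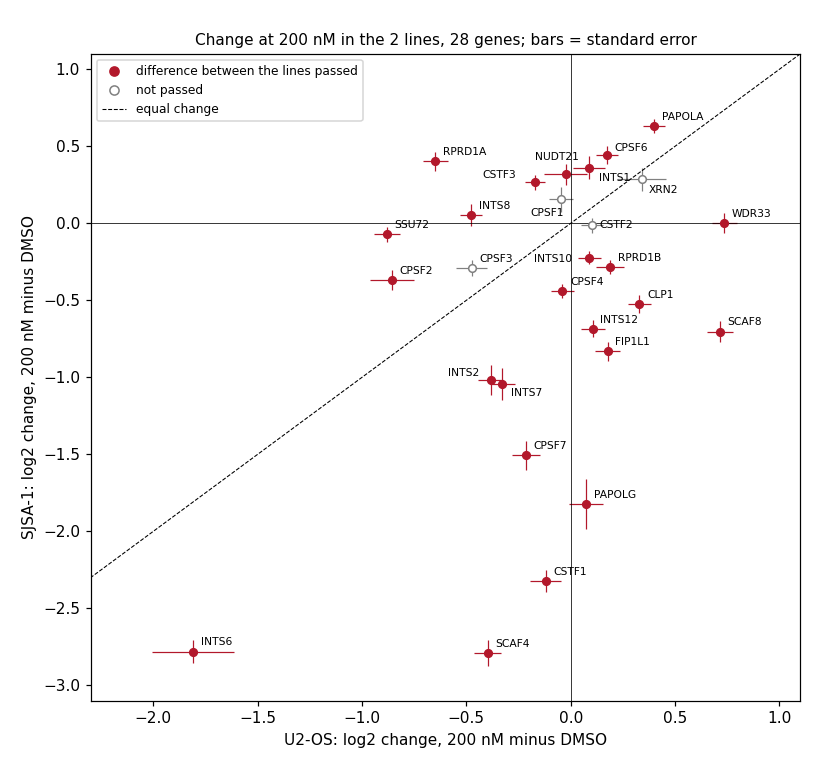
The log2 change at 200 nM in SJSA-1 (y axis) is plotted against that in U2-OS (x axis) for the 28 genes active in both lines, with standard errors as bars, filled points where the difference between the lines passed and a dashed line at equal change. SCAF4, CSTF1 and PAPOLG lie far below the line, INTS6 is low on both axes, and FIP1L1, CLP1, RPRD1B and SCAF8 lie below 0 on the y axis and above 0 on the x axis, with RPRD1A and CSTF3 placed the other way. The U2-OS rises of FIP1L1 and RPRD1B and the SJSA-1 rise of CSTF3 turned under the spike-in shift.

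The lines also started from different levels. In DMSO arrays, 14 of the 28 genes were higher and 11 were lower in SJSA-1 than in U2-OS, where 42.3% and 38.9% of all genes active in both lines were. INTS6 (1.13 ± 0.16), SSU72 (1.11 ± 0.05), INTS8 (0.92 ± 0.06) and RPRD1B (0.89 ± 0.06) were higher, and CPSF1 (-1.04 ± 0.07) and INTS1 (-0.73 ± 0.08) were lower by the most. RPRD1A (-0.02 ± 0.06), CSTF2 (0.05 ± 0.05) and WDR33 (-0.08 ± 0.06) did not pass. The spike-in shift left 6 higher and 14 lower, beside 14.6% and 63.9% of all genes active in both.

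Probe sets of the same gene did not always move together. For 5 genes, active probe sets passed in opposite directions at 200 nM in 1 of the lines, and CSTF3, WDR33, SSU72 and PAPOLA had wider gaps than CPSF6. CSTF3 had a further probe set with a mean intensity of 282 in DMSO arrays of SJSA-1 and 239 in those of U2-OS, which fell at each dose, with changes of -2.78, -1.82 and -0.84 in SJSA-1 and of -0.58, -2.36 and -3.44 in U2-OS. The other active CSTF3 probe sets rose by 0.17 to 0.27 at 200 nM in SJSA-1. A further WDR33 probe set fell at each dose in SJSA-1 (-1.56, -1.73 and -1.73) and at 200 and 800 nM in U2-OS (-0.94 and -1.99), while the brightest one rose at 200 nM in U2-OS. At 200 nM 1 probe set thus fell where the brightest one rose, for CSTF3 in SJSA-1 and for WDR33 in U2-OS.

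The further SSU72 probe set rose by 1.22, 0.66 and 0.32 in SJSA-1 and by 0.40 and 0.33 at 200 and 800 nM in U2-OS, against falls of the other active probe sets in U2-OS. For PAPOLA in U2-OS at 200 nM, 3 probe sets rose by 0.40 to 0.50 and 5 fell (-0.25 to -0.42). When a gene's probe sets were averaged instead of taking the brightest, signs at 200 nM turned for CSTF3 (-0.19) and RPRD1B (0.11) in SJSA-1 and for FIP1L1 (-0.00726), INTS4 (0.044), PAPOLA (-0.00861) and WDR33 (-0.066) in U2-OS. The positions of the probe sets within the transcripts are not given in the sources used here, so which transcript forms they measure was not tested.

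**Figure D4:**
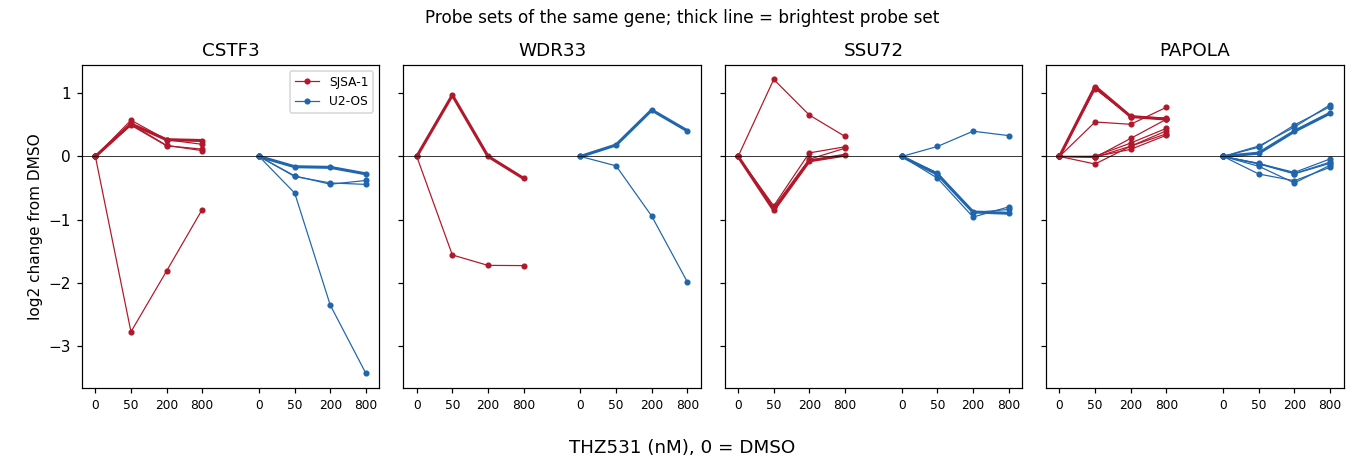
Lines join the log2 change from DMSO of each active probe set of CSTF3, WDR33, SSU72 and PAPOLA over dose, with SJSA-1 in red on the left and U2-OS in blue on the right of each panel and the brightest probe set drawn thick. CSTF3 and WDR33 each have 1 probe set that falls in both lines, SSU72 has 1 that rises, and the PAPOLA probe sets split in U2-OS.

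The 4 genes active in neither line were fitted only in the fit over all 18132 genes, whose intensities are near the background for many. PCF11, the CTD-binding subunit of cleavage factor II, was at 15.6, 17.4 and 15.5 at 200 nM in SJSA-1, against 72.5, 77.7 and 73.5 in DMSO, and its changes were -1.52, -2.14 and -2.52 at 50, 200 and 800 nM. In U2-OS it was at 20.5, 15.7 and 20.7 at 200 nM, against 38.1, 23.8 and 24.3 in DMSO, with changes of -0.11, -0.55 and -0.79. PCF11 passed in this fit at each dose in SJSA-1 and at 200 and 800 nM in U2-OS, where 22.1%, 23% and 20.9% of all genes fell in SJSA-1 and 0.789%, 13.4% and 21% in U2-OS at the 3 doses.

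PABPN1, which coats the nuclear poly(A) tail, rose in the same fit by 0.94, 1.60 and 1.52 in SJSA-1 and by 1.02 at 800 nM in U2-OS, and it exceeded 100 on all treated arrays of SJSA-1. RPRD2, a relative of RPRD1A and RPRD1B, had 0.60, -0.38 and -0.65 in SJSA-1, all passed, and 0.61 at 800 nM in U2-OS, so that its signs were those of RPRD1B. INTS5 passed once, at 800 nM in U2-OS (-0.29). INTS3, INTS4, INTS9 and SYMPK also had values in this fit for the line in which they were not active. INTS9 had -1.12, -0.71 and -0.46 in SJSA-1, all passed. INTS3 had -0.14, -0.49 and -0.64 in U2-OS, the first not passed. In SJSA-1, INTS4 had -0.14, 0.12 and 0.22, passed at 800 nM only. SYMPK had -0.13, 0.29 and 0.16 there, passed at 200 nM only. In SJSA-1, 17.2%, 33.6% and 24.4% of all genes rose in this fit at 50, 200 and 800 nM, and 0.767%, 9.13% and 14.3% did in U2-OS.

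Of 37 further genes of the same pathways that are not among the 36, 35 were on the array and 29 were tested in each line. At 200 nM, 14 of these fell and 8 rose in SJSA-1 (41% and 33.9% of all active genes), and 8 fell and 5 rose in U2-OS (25% and 18.2%). In SJSA-1 the largest changes were those of RPAP2, a CTD phosphatase (-2.38), NABP1 of the SOSS complex (-2.13), CSTF2T (-1.78) and PPP1R10, a subunit of a nuclear PP1 phosphatase complex (-1.76). In U2-OS they were those of PPP1R10 (-1.23), NABP1 (-0.81), CSTF2T (-0.50) and INTS14 (-0.42). All of these named genes were lower.

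Gene length, given as the span on GRCh38.p14, was set beside the change as a description. Over the 29 genes tested in SJSA-1, the rank correlation of span and change was 0.08, -0.03 and 0.06 at 50, 200 and 800 nM, beside -0.18, -0.17 and -0.05 over all active genes. Over the 31 genes tested in U2-OS it was -0.06, -0.06 and -0.12, beside 0.03, 0.01 and -0.01. The genes of these correlations share their arrays, and spans of the 36 genes ran from 4.10 kb for CLP1 to 122 kb for INTS9.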

How the data were processed

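RNA of 24 samples was hybridised to Affymetrix PrimeView arrays. The deposited values are RMA intensities on a linear scale; the submitters' processing notes also name MAS5, and versions are not given in the sources used here. Groups and replicate numbers came from the sample labels. The 36 genes and all lists were chosen with earlier results of these data known. Genes were taken from probe sets that carry 1 symbol, updated by Entrez identifier. Linear models of log2(intensity + 1) used limma 3.58.1 and statmod 1.5.0 under R 4.3.3 over the 12 arrays of a line, or over 24 for contrasts between lines, with Benjamini-Hochberg adjustment over active genes. The number of arrays and the signal over background limit precision. The fit was tested on simulated data. Every array is given for genes with the 6 largest changes at 200 nM in a line, with opposite signs in the lines, or with probe sets of opposite sign. Further lists were named by the 4 largest changes. Alternatives changed scaling, pseudocount, filter, probe-set choice, samples in the fit, test and threshold. Figures used matplotlib 3.10.9 in Python 3.11.15 with pandas 2.3.3.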

Additional observations from a re-analysis of the deposited data

Results flagged for a closer look

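The change at 200 nM differed between the lines for 24 of the 28 genes active in both lines by the interaction term of limma, 15 below 0 and 9 above (35.5% and 28.4% of all genes active in both), and each value is the difference on the log2 scale, SJSA-1 over U2-OS. Differences below 0 were those of SCAF4 (-2.39), CSTF1 (-2.20), PAPOLG (-1.89), SCAF8 (-1.42), CPSF7 (-1.29), FIP1L1 (-1.01), INTS6 (-0.97), CLP1 (-0.85), INTS12 (-0.79), WDR33 (-0.73), INTS7 (-0.72), INTS2 (-0.64), RPRD1B (-0.47), CPSF4 (-0.40) and INTS10 (-0.31). Differences above 0 were those of RPRD1A (1.05), SSU72 (0.81), INTS8 (0.53), CPSF2 (0.49), CSTF3 (0.44), NUDT21 (0.34), INTS1 (0.27), CPSF6 (0.27) and PAPOLA (0.23). The adjusted p values ran from 1.76e-13 for SCAF4 to 0.0355 for INTS1. INTS1 no longer passed without 1 of 6 arrays (DMSO replicates 1 and 3 and 200 nM replicate 2 of SJSA-1, DMSO replicate 3 and 200 nM replicates 1 and 3 of U2-OS), with differences of 0.17 to 0.26. NUDT21 no longer passed without 1 of 5 arrays (DMSO replicate 3 and 200 nM replicate 1 of SJSA-1, DMSO replicates 1 and 2 and 200 nM replicate 2 of U2-OS), with differences of 0.26 to 0.32. Single outlying arrays within groups of 3 were not tested.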

How the results depend on the processing

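Counts are of the 36 genes, lower and then higher. Without a filter on low values U2-OS had 0 lower at 50 nM and 4 higher at 200 nM. With a DMSO mean above 200, fewer genes were tested: SJSA-1 had 9 lower at 50 nM, U2-OS had 1 lower at 50 nM, 6 and 5 at 200 nM, 9 and 5 at 800 nM, and 7 and 5 between 50 and 800 nM, the line difference had 6 and 5, and the DMSO levels had 4 and 9. With at least 2-fold, SJSA-1 had 5 and 1 at 50 nM, 7 and 0 at 200 nM, 8 and 0 at 800 nM, and 7 and 1 between 50 and 800 nM (7.89% and 1.04% of all active genes). U2-OS had 0 lower at 50 nM, 1 and 0 at 200 nM, 3 and 1 at 800 nM, and 1 and 1 between 50 and 800 nM (3.28% and 0.653%). The line difference then had 6 and 1 (10% and 0.239% of all genes active in both lines), and the DMSO levels had 1 and 2 (6.29% and 6.94%). After the spike-in shift SJSA-1 had 2, 1 and 1 higher at 50, 200 and 800 nM. U2-OS had 0 lower at 50 nM, 2 higher at 200 nM, 1 higher at 800 nM, and 24 and 1 between 50 and 800 nM, the line difference had 5 higher, and the DMSO levels had 6 higher. At 50 nM in U2-OS, 1 fit over all 24 arrays gave 6 lower, and quantile normalization again gave 5 and 1. At 200 nM in U2-OS, the mean of all probe sets gave 5 higher, and fitting only the groups compared gave 4.

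The methods' t-test, adjusted, gave 0 lower at 50 nM and 4 higher at 200 nM in U2-OS, and unadjusted it gave 6 and 2 at 50 nM. It was not run on the line difference. Leaving out single arrays gave 0 to 5 lower and 0 to 1 higher at 50 nM in U2-OS (each array but DMSO replicate 3 moved the first, DMSO replicate 3 the second), and 4 to 8 higher at 200 nM (4 without DMSO replicate 1, 5 without 200 nM replicate 3). The other counts stayed within 1.5 times when any 1 array was left out.

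Signs at 200 nM turned under the mean of all probe sets for FIP1L1 (-0.00726), INTS4 (0.044), PAPOLA (-0.00861) and WDR33 (-0.066) in U2-OS and for CSTF3 (-0.19) and RPRD1B (0.11) in SJSA-1. They turned under the spike-in shift for CPSF6 (-0.091), FIP1L1 (-0.087) and RPRD1B (-0.075) in U2-OS and for CSTF3 (-0.072), NUDT21 (-0.019) and XRN2 (-0.052) in SJSA-1. The cause was not tested. With the replicate number as a block, 11 fell and 6 rose at 200 nM in U2-OS, against 12 and 8 without it, and no count moved by over 1.5 times. Same-numbered arrays did not deviate together (median r of -0.06 in SJSA-1 and -0.05 in U2-OS).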
